A study of Arabidopsis thaliana with 16 samples.

Results

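The genes described here are the rows of the count table numbered AT2G07667 to AT2G07835, the part of Arabidopsis chromosome 2 where a copy of the mitochondrial genome lies in the nuclear DNA. The rule that picks them uses gene numbers and no measured value, but these genes were chosen with earlier results of these data known. The table of 28598 genes holds 69 of them, and 65 had 10 or more counts in at least 4 of the 8 libraries. RNA was taken from suspension cultures of the Columbia ecotype (Col-0), 4 cultures kept in the dark (Dark-RNA1 to Dark-RNA4) and 4 in constant light (Light-RNA1 to Light-RNA4). The dark cultures were wrapped in foil for 2 weeks with a subculture every 7 days, and both groups grew in the same sucrose medium with 2,4-D at the same temperature and shaking. The labels give 16 hours for every library. The protocol also names a 5-day sampling of light-grown cells without saying which samples it was, and states that cultures were run in duplicate, so p-values measure the spread between these libraries, which may be partly technical.

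A plant mitochondrion keeps a small genome of its own. It encodes core subunits of the respiratory complexes and of ATP synthase, proteins that attach heme to cytochrome c, some ribosomal proteins, ribosomal and transfer RNAs, and many open reading frames without known function. Plant mitochondrial genomes also hold pieces copied from the plastid. Pieces of organelle DNA that enter the nucleus are called NUMTs (mitochondrial) or NUPTs (plastid), and the copy near the centromere of chromosome 2 in Col-0 is a well-known large NUMT. Many transcripts of plant mitochondria have specific C bases changed to U by RNA editing, so that edited transcripts no longer match the genome base for base. Mature transcripts made in plant mitochondria mostly lack the poly(A) tails of nuclear messenger RNA.

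In the RefSeq TAIR10.1 assembly, the stretch of chromosome 2 that matched the mitochondrial genome ran over chr2:3239038-3509765, which is 270728 bases. Of its 50-base windows, 95.9% were found unchanged in the mitochondrial genome, and they covered 73.1% of the 367808 bases of that genome. The match starts and stops abruptly, and the lowest bins of 1 kb, at 19 and 20 kb from its start, had 44.2% and 40.4% of windows unchanged. Of the 69 genes, 62 lie inside the block. 1 further gene, AT2G07668, has no annotation in this assembly and no counts, and 6 lie beyond the block's end. For 61 described genes inside the block, between 83.8% and 100% of the 50-base exon windows were found unchanged in the mitochondrial genome, with a median of 100%, and 34 of the 61 had every window there. The mean over the 62 genes was 97.3%.

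**Figure D1:**
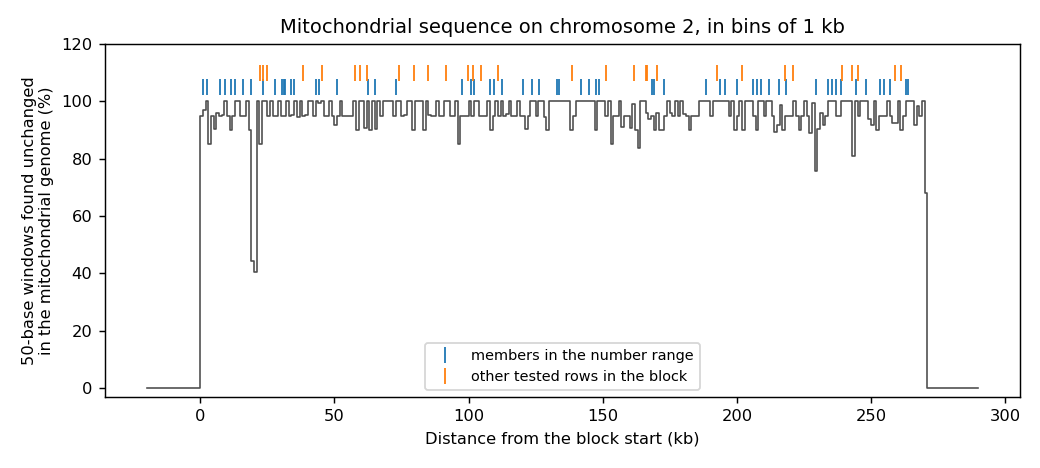
Share of 50-base windows found unchanged in the mitochondrial genome (vertical axis, percent) in bins of 1 kb against distance from the block start (kb). Blue and orange marks show tested genes of the number range and other tested rows of the block; the line is at 0 on either side of the block and high inside it, with its lowest bins at 44.2 and 40.4 (19 and 20 kb).

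The sequences below show how close the copies are, and why a read of 50 bases from most of these genes has no unique origin. The first set gives the opening 30 bases of the coding match in 3 abundant genes, with the start codon in capitals. Each stretch is identical in the mitochondrial genome.
AT2G07698 (atp1), chr2:3362505-3362534, plus strand: ATGgaattatctcctagagctgcggaacta
AT2G07727 (cob), chr2:3450863-3450892, plus strand: ATGactataaggaaccaacgattctctctt
AT2G07687 (cox3), chr2:3312622-3312651, minus strand: ATGattgaatctcagaggcattcttatcat
Over their whole annotated span, introns included, 55 of the 61 genes aligned to the mitochondrial genome without a gap. Of these, 30 were identical in every base, 19 differed at 1 base, 3 at 2 bases and 3 at 3 or more, with at most 4. The 55 genes held 37 differences in 72751 bases. Written with the mitochondrial base first, 22 of the 37 were C to T or G to A, 1 was T to C or A to G, and 14 were transversions. The remaining 6 genes could not be aligned over their span without gaps: AT2G07749, AT2G07768, AT2G07774, AT2G07777, AT2G07798 and AT2G07806.

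AT2G07732, annotated as a large-chain ribulose bisphosphate carboxylase (rbcL) protein, is the gene on which the comparison below turns, and it resembles both organelles. Its 740 bases differ from the mitochondrial copy at 2 places, G351C and C688T, where the mitochondrial base comes first and positions count from 1 at the 5′ end of the gene. The stretches around them are given for the gene, the mitochondrion and the plastid rbcL, with the differing base in capitals.
AT2G07732, chr2:3468535-3468564, minus strand: tatttgaatgctactCcgggtacatgcgaa
mitochondrion at 351: tatttgaatgctactGcgggtacatgcgaa
plastid at 351: tatttgaatgctactGcgggtacatgcgaa
AT2G07732, chr2:3468198-3468227, minus strand: tatgttgaaaaagatTgaagccgcggtatc
mitochondrion at 688: tatgttgaaaaagatCgaagccgcggtatc
plastid at 688: tatgttgaaaaagatCgaagccgcggtatc
At both places the plastid and the mitochondrion share the base that the chromosome 2 gene lacks. Of the gene's 691 windows, 85.5% were found unchanged in the mitochondrial genome and 100% with 1 mismatch allowed. In the plastid genome 20.1% were found unchanged, 52.7% with up to 1 mismatch and 64.1% with up to 2. The other gene of plastid descent, AT2G07739, resembles plastid ycf1. All of its 839 windows were unchanged in the mitochondrion, and 35.5% were unchanged in the plastid, or 76.2% with up to 2 mismatches.

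Editing gives a second way to tell the copies apart. The assembly annotates 594 C-to-U sites in mitochondrial transcripts, and 21 of the 61 genes carry sites edited on their own strand. AT2G07734, which matches rps4 (a protein of the small ribosomal subunit), has 23. Its stretch with the most edited sites is given next, with the 4 edited C bases in capitals.
AT2G07734, chr2:3472636-3472665, minus strand: taagattaaaagatCCaaaccttcCtcttC
Across the 19 genes that match a mitochondrial coding sequence, the share of windows with an edited site and the level per kb of exon had Spearman's rho of -0.23 and Pearson's r of -0.24 (level as log2). These 19 points come from the same libraries and are given as a description.

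The 8 libraries held 18363149 to 37813411 counts, so 3 counts amount to 0.0779 to 0.159 CPM (counts scaled to a common effective library size). All 95 chloroplast rows and all 232 mitochondrial rows of the table were 0 in every library. Among markers, 3 of 3 genes of green cells were called lower in dark (RBCS1A, the small subunit of Rubisco, averaged 4.28 CPM in dark and 291 CPM in light), and 6 genes of dividing cells had log2 fold changes of -0.99 to -0.13, none called by edgeR, 3 at unadjusted p under 0.05 and 1 called by DESeq2. Of 7 markers of differentiated cells, 6 had at most 18 counts in any library, and RHD6, a root hair regulator, was called higher in dark (9.70 CPM in dark against 1.46 CPM in light, adjusted p of 0.030 by edgeR). Shares of cell states and RNA per cell cannot be told apart in bulk RNA, and the part of these markers in the values below was not tested.

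The chromosome 2 genes were heavily counted in every library. They took 2.92% to 3.82% of all counts, and their summed level was 32230, 40669, 29367 and 35015 CPM in Dark-RNA1 to Dark-RNA4, against 33971, 32837, 30348 and 31202 CPM in Light-RNA1 to Light-RNA4. The groups overlap, and the means were 34320 ± 4820 CPM in dark and 32090 ± 1625 CPM in light (SD, n = 4 each). The log2 ratio of the means was 0.10 with all libraries and 0.01 without Dark-RNA2, the highest library. AT2G07698, AT2G07727, AT2G07671, AT2G07689 and AT2G07741 together held 57.6% ± 2.1 of the counts on these genes in dark and 56.2% ± 1.6 in light (SD, n = 4 each). The 19 genes that match a coding sequence held 80.1% ± 1.1 in dark and 78.1% ± 0.7 in light, and those for ATP synthase alone 40.4% ± 2.7 in dark and 39.5% ± 0.8 in light. The coding match takes between 7.95% and 100% of the windows of a gene, so a row named below by a coding sequence can lie mostly outside it. The share is 30.9% in AT2G07671 (atp9), 37.0% in AT2G07727 (cob) and 28.3% in AT2G07681 (ccmC). It is 22.1% in AT2G07815 (ccmFC), 38.6% in AT2G07715 (rpl2) and 44.8% in AT2G07785 (nad1). The reads of the chromosome 2 copies and of the mitochondrial genes were not separated, so a level below is that of the row and not of one genome.

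Whether dark growth moved these genes was tested with edgeR's quasi-likelihood test and Benjamini-Hochberg adjustment over all 19129 genes kept, at an adjusted p under 0.05. Of the 69 genes 66 were tested, 1 was called lower in dark (AT2G07732) and 3 higher (AT2G07680, AT2G07825 and AT2G07827). That is 6.06% of those tested, against 10.0% of all genes (6.31% lower and 3.69% higher). At unadjusted p under 0.05 there were 22 of 66 (33.3%), against 25.2% of all genes. DESeq2 called 15 of 67, 1 lower and 14 higher, beside 15.8% of the 21253 genes it tested. Over all genes DESeq2 called 1871 lower and 1485 higher. Libraries of the groups did not overlap for 8 of the 66 (12.1%), 1 lower in dark and 7 higher. Over all genes the share was 16.6%, with 10.1% lower in dark and 6.5% higher. Log2 fold changes were above 0 for 56 of the 66 (84.8%), against 50.5% of all genes, and their median was 0.20, against 0.00 over all genes tested. These genes share a locus, a sequence source and the same 8 libraries, so their direction is a description and carries no test.

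The gene that fell was AT2G07732. It had 312, 327, 250 and 282 CPM in Dark-RNA1 to Dark-RNA4, against 1291, 1330, 1548 and 930 CPM in Light-RNA1 to Light-RNA4. Every dark library lies below every light library. The means were 293 ± 34 CPM in dark and 1275 ± 256 CPM in light (SD, n = 4 each). The log2 fold change was -2.12 ± 0.17 (SE), a 4.35-fold lower level in dark, with an adjusted p of 2.3e-04 by edgeR's quasi-likelihood test. With each library left out in turn, the log2 fold change stayed between -2.25 and -2.02. Rubisco, whose large chain rbcL encodes in the plastid, fixes carbon dioxide in photosynthesis, and in most plants the active rbcL copy lies in the plastid genome alone. The plastid rows of the table were 0, and 64.1% of the windows of AT2G07732 lie within 2 mismatches of the plastid genome; the share of its counts that came from plastid transcripts was not tested.

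AT2G07739, the ycf1-like gene, had 515, 539, 574 and 623 CPM in the dark libraries and 538, 532, 521 and 475 CPM in the light libraries. Its groups overlap. The log2 fold change was 0.12 ± 0.09 (SE), with an adjusted p of 0.46 by edgeR, and the difference between the 2 plastid-derived genes was not tested. Plastid ycf1 encodes a large membrane protein. The nearest tested row of the range beyond AT2G07732, AT2G07734, had a log2 fold change of 0.43.

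**Figure D2:**
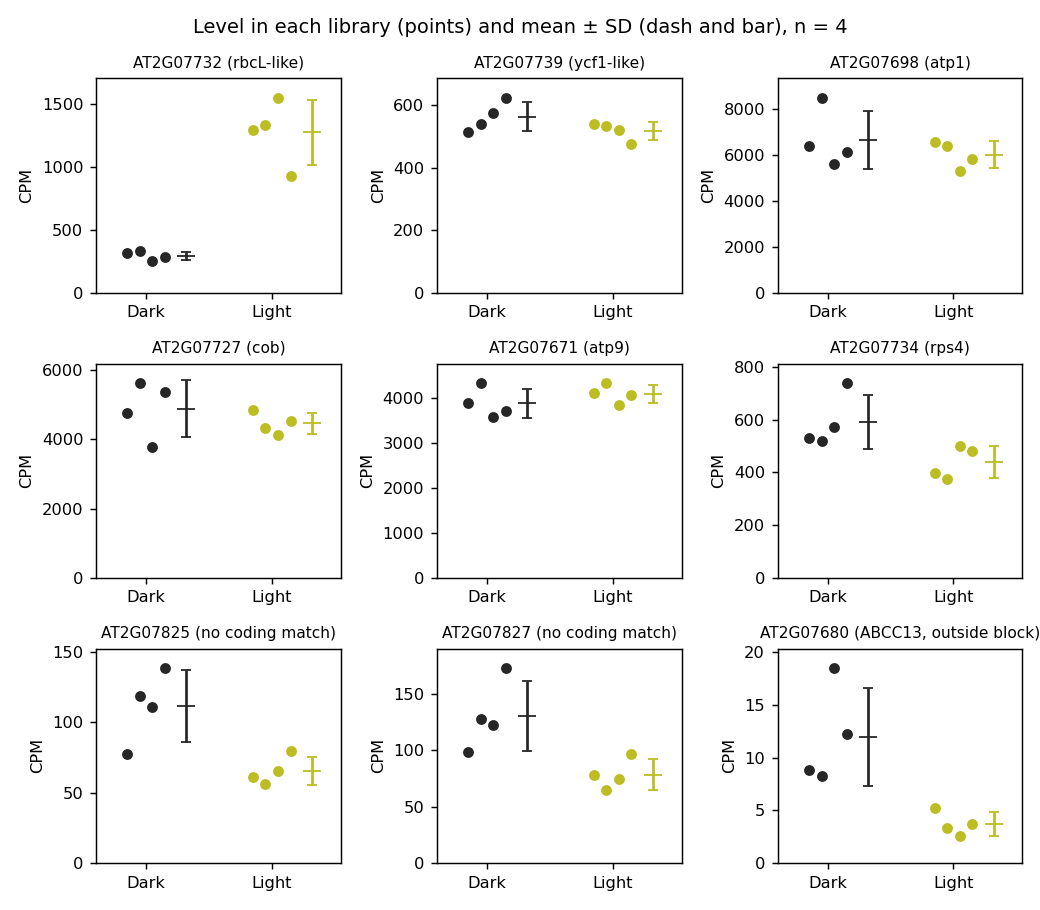
Level in CPM (vertical axes, each from 0) in each library for 9 genes, with dark points left of light points and a dash with a bar for the mean ± SD (n = 4). AT2G07732 separates the groups without overlap, as do rps4, AT2G07827 and AT2G07680, and the panels of atp1, cob and atp9 overlap.

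Each gene was placed by its largest coding match. For complex I, the NADH dehydrogenase that passes electrons to ubiquinone, these were AT2G07689 (nad2), AT2G07751 (nad3) and AT2G07785 (nad1). AT2G07689 had 2192, 3175, 1770 and 2738 CPM in the dark libraries and 2352, 2213, 1777 and 1830 CPM in the light libraries. Dark-RNA2 and Dark-RNA4 lie above the light libraries and Dark-RNA3 at their lower end. Its log2 fold change was 0.27 ± 0.19 (SE). AT2G07751 averaged 107 ± 7 CPM in dark and 104 ± 14 CPM in light (SD, n = 4 each). AT2G07785 averaged 148 ± 30 CPM in dark and 182 ± 14 CPM in light, with a log2 fold change of -0.30 ± 0.15 (SE), and Dark-RNA3 was lowest at 108 CPM. None of the 3 was called, and none had an unadjusted p under 0.05.

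Complex III, which passes electrons on to cytochrome c, was represented by AT2G07727 (cob, its cytochrome b). It had 4768, 5629, 3794 and 5374 CPM in the dark libraries and 4845, 4341, 4134 and 4530 CPM in the light libraries. The dark libraries spread on both sides of the light ones. The log2 fold change was 0.13 ± 0.14 (SE). Complex IV, the oxidase that reduces oxygen, was represented by AT2G07695 (cox2) and AT2G07687 (cox3). The coding match takes 81.6% of the windows of AT2G07687 but 7.95% of those of AT2G07695, so most of that row lies outside the cox2 coding sequence. AT2G07695 had 863, 1252, 802 and 945 CPM in the dark libraries and 943, 897, 793 and 857 CPM in the light libraries. Dark-RNA2 stands above all the others. AT2G07687 had 828, 845, 894 and 969 CPM in the dark libraries and 874, 846, 871 and 815 CPM in the light libraries. It varied little within either group. Their log2 fold changes were 0.15 ± 0.15 and 0.05 ± 0.09 (SE), and neither was called.

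ATP synthase, which makes ATP from the proton gradient, was matched by 4 genes, 1 of them the highest of all in CPM. AT2G07698 (atp1, the alpha subunit of the catalytic head) had 6355, 8468, 5599 and 6095 CPM in the dark libraries and 6563, 6367, 5274 and 5804 CPM in the light libraries. AT2G07671 (atp9, the ring subunit in the membrane) had 3887, 4334, 3586 and 3715 CPM in the dark libraries and 4107, 4327, 3839 and 4076 CPM in the light libraries. The groups overlap in both. AT2G07741 (atp6, the membrane subunit beside the ring) had 1681, 2801, 1631 and 1646 CPM in the dark libraries and 1671, 1584, 1412 and 1122 CPM in the light libraries. Its Dark-RNA2 value stands far above the other 7. AT2G07707 (atp8, a small membrane subunit) had 1175, 1686, 1516 and 1374 CPM in the dark libraries and 1075, 1067, 1233 and 1153 CPM in the light libraries. Dark-RNA1 falls within the range of the light libraries and the other 3 dark libraries lie above it. Log2 fold changes were 0.14 ± 0.15, -0.07 ± 0.10, 0.42 ± 0.21 and 0.34 ± 0.12 (SE) for atp1, atp9, atp6 and atp8, and none was called. Per kb of exon, the whole row of AT2G07671 (atp9) was highest at 5134 CPM per kb over all libraries. The 4 genes lay between 1462 and 5134 CPM per kb.

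The genes of cytochrome c maturation, which build the pathway that joins heme to cytochrome c, fell into a low pair and a high pair. AT2G07681 and AT2G07771 both match ccmC, and AT2G07681 also matches nad6 of complex I as its second coding match. AT2G07681 had 18.2, 27.7, 19.5 and 24.7 CPM in the dark libraries and 16.2, 16.7, 15.6 and 15.1 CPM in the light libraries, so all dark libraries lie above the light ones. Its log2 fold change was 0.50 ± 0.14 (SE) with an adjusted p of 0.064 by edgeR, and it passed by DESeq2 (0.52, adjusted p of 0.019). AT2G07771 averaged 17.9 ± 3.6 CPM in dark and 13.4 ± 0.9 CPM in light (SD, n = 4 each). Of the windows of AT2G07681, 85.7% also occur elsewhere in the nuclear genome, and of those of AT2G07771, 93.1%. AT2G07815 (ccmFC) averaged 568 ± 74 CPM in dark and 545 ± 22 CPM in light, and AT2G07768 (ccmFN2) 262 ± 31 CPM in dark and 236 ± 17 CPM in light (SD, n = 4 each). Neither of these 2 repeats elsewhere in the nuclear chromosomes of the TAIR10.1 assembly (0% of windows), the only assembly searched. Repeats also occur in genes of high level. AT2G07741 (atp6) had 91.0% of windows elsewhere in the nuclear genome at a mean of 1693 CPM over all libraries. AT2G07671 (atp9) had 41.8% at 3984 CPM. Whether repeats bear on level was not tested.

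Genes of ribosomal proteins matched rps4, rps7, rps12, rpl2 and rpl5. AT2G07725 (rpl5) had 1666, 1933, 1163 and 1597 CPM in the dark libraries and 1599, 1512, 1511 and 1626 CPM in the light libraries. The light libraries agree closely and the dark ones spread around them. AT2G07734 (rps4) had 530, 519, 571 and 739 CPM in the dark libraries and 398, 377, 501 and 480 CPM in the light libraries. Its groups do not overlap, with a log2 fold change of 0.43 ± 0.15 (SE) and an adjusted p of 0.11 by edgeR. AT2G07696 (rps7), AT2G07675 (rps12) and AT2G07715 (rpl2) had log2 fold changes of 0.09, -0.08 and 0.00. Their dark means were 508, 96.1 and 497 CPM, against light means of 476, 102 and 495 CPM. Across all 19 coding matches, 16 log2 fold changes were above 0 with a median of 0.13. None was called by edgeR, against 10.0% of all genes. At unadjusted p under 0.05 there were 4, against 25.2% of all genes. DESeq2 called 2 (AT2G07681 and AT2G07734), against 15.8% of all genes it tested.

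**Figure D3:**
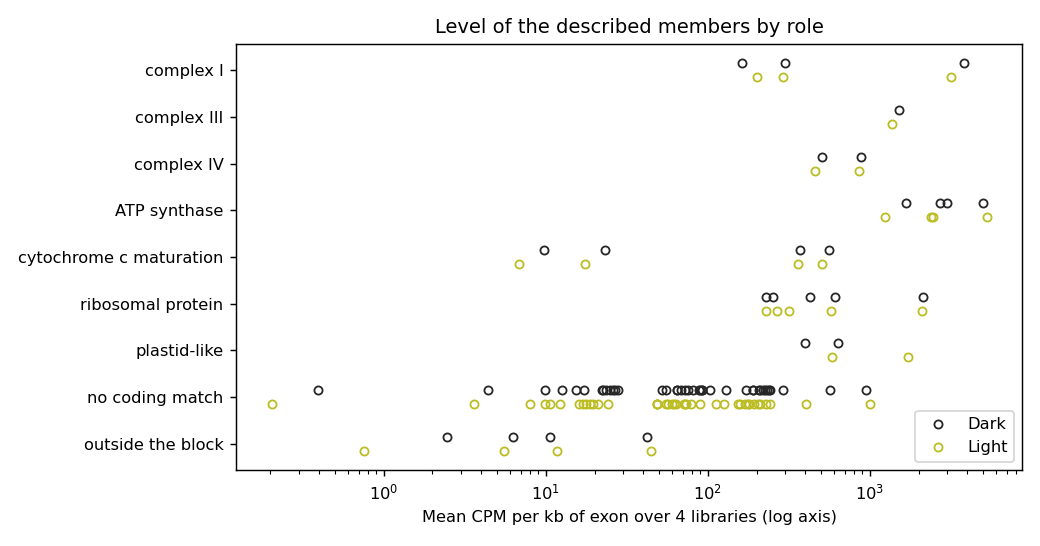
Mean level of each described gene in CPM per kb of exon over 4 libraries (log axis), by role, with dark points above light points in each row. Coding matches run from 8.30 to 5134 CPM per kb over all libraries, and genes with no coding match reach 973 CPM per kb.

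The other 40 described genes inside the block match no mitochondrial coding sequence over 5% or more of their windows. Most are uncharacterized proteins, and for them 37 of 40 log2 fold changes were above 0 with a median of 0.30. 2 were called higher (AT2G07825 and AT2G07827), 16 had an unadjusted p under 0.05, and DESeq2 called 11, beside the shares of all genes given above. AT2G07825 had 77.7, 119, 111 and 138 CPM in the dark libraries and 60.9, 55.9, 65.5 and 79.5 CPM in the light libraries. Dark-RNA1 lies below Light-RNA4, so the groups overlap. Its log2 fold change was 0.77 ± 0.18 (SE) with an adjusted p of 0.031 by edgeR, and 0.0082 to 0.095 with a library left out. AT2G07827 had 98.4, 128, 122 and 173 CPM in the dark libraries and 77.8, 64.8, 75.0 and 96.8 CPM in the light libraries. The groups do not overlap, though Dark-RNA1 and Light-RNA4 are close. Its log2 fold change was 0.73 ± 0.19 (SE) with an adjusted p of 0.040, and 0.022 to 0.12 with a library left out.

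Both called genes are neighbours. AT2G07734, AT2G07825, AT2G07827 and AT2G07787 follow each other at 234, 235, 237 and 239 kb from the block start with log2 fold changes of 0.43, 0.77, 0.73 and 0.46. The next row, AT2G07658, which lies on the opposite strand over AT2G07787 and outside the number range, had 0.58 (adjusted p of 0.030). Whether the counting used strand is not given, so counts of such overlapping pairs are uncertain. The called AT2G07827 overlaps AT2G07830 on the opposite strand, and AT2G07830 was 0 in every library. AT2G07669 and AT2G07678 overlap on the same strand, as do AT2G07696 and AT2G07599. AT2G07692, AT2G07772, AT2G07776 and AT2G07785 each overlap a row on the opposite strand. AT2G07827 differs from the mitochondrial copy at 1 base, G1800A, counted as above. The stretch is given with that base in capitals.
AT2G07827, chr2:3476780-3476809, plus strand: ctgaaaggagaggttAtgaacacaaactcg
mitochondrion at 1800: ctgaaaggagaggttGtgaacacaaactcg

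**Figure D4:**
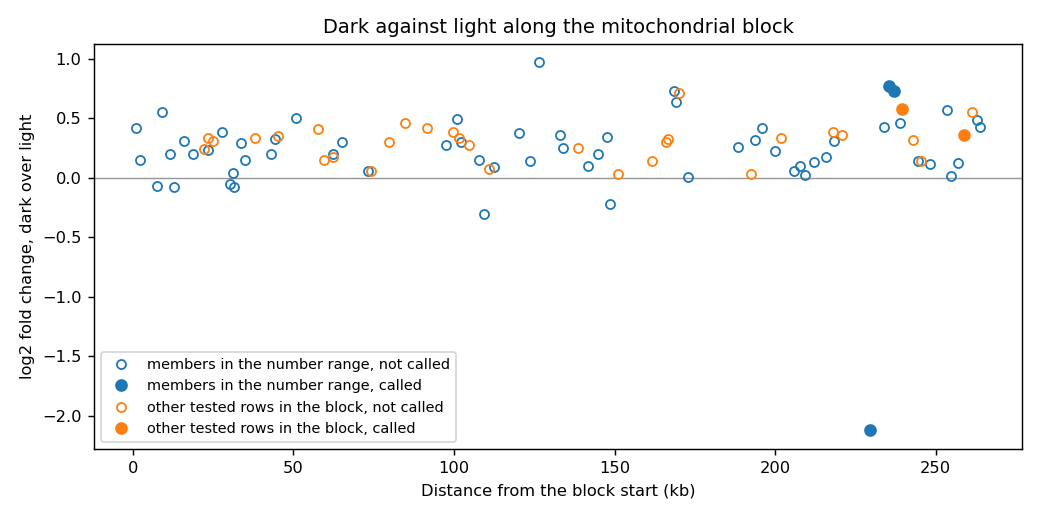
Log2 fold change, dark over light (vertical axis), against distance from the block start (kb) for the 92 tested rows of the block. Filled points were called; AT2G07732 lies at -2.12, and most other points lie above 0.

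Among further genes whose groups do not overlap, AT2G07669 had 17.2, 18.8, 17.3 and 19.4 CPM in the dark libraries and 16.3, 13.3, 14.8 and 13.4 CPM in the light libraries. AT2G07738 had 9.66, 10.8, 11.2 and 15.1 CPM in the dark libraries and 9.06, 6.60, 7.28 and 8.64 CPM in the light libraries. AT2G07749, annotated as an RNA-dependent RNA polymerase of a mitovirus, a family of viruses that live in mitochondria, had 149, 190, 145 and 266 CPM in the dark libraries and 134, 133, 116 and 127 CPM in the light libraries. In each of the 3 every dark library is above every light one. Their log2 fold changes were 0.33, 0.57 and 0.56, with adjusted p-values of 0.092, 0.079 and 0.11 by edgeR. DESeq2 called all 3, beside 15.8% of all genes it tested.

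By mean level over all libraries, 10 of the 40 genes lay under 10 CPM, with dark means of 0.526 to 11.7 CPM and light means of 0.274 to 7.89 CPM. They were AT2G07667, AT2G07691, AT2G07692, AT2G07701, AT2G07702, AT2G07705, AT2G07713, AT2G07714, AT2G07738 and AT2G07820. All 10 had log2 fold changes above 0, with a median of 0.43 and a range of 0.10 to 0.97, and the highest was that of AT2G07667, which was near the floor in some libraries (0.130 CPM in Light-RNA1) and had an adjusted p of 0.23. A further 13 lay between 10 and 100 CPM (AT2G07669, AT2G07672, AT2G07673, AT2G07676, AT2G07684, AT2G07721, AT2G07722, AT2G07728, AT2G07772, AT2G07775, AT2G07787, AT2G07806 and AT2G07825), again all above 0, with a median of 0.24 and a range of 0.12 to 0.77. The remaining 17 lay above 100 CPM, with a median of 0.20 and a range of -0.22 to 0.73, and 14 of them were above 0. They were AT2G07674, AT2G07678, AT2G07706, AT2G07708, AT2G07718, AT2G07719, AT2G07724, AT2G07749, AT2G07773, AT2G07774, AT2G07776, AT2G07777, AT2G07779, AT2G07795, AT2G07798, AT2G07827 and AT2G07835. The most abundant, AT2G07718 (annotated as a cytochrome b/b6 protein), had 1005, 1338, 888 and 1180 CPM in the dark libraries and 978, 948, 864 and 898 CPM in the light libraries, which overlap. AT2G07776, of which 94.0% of windows repeat elsewhere in the nuclear genome, averaged 837 ± 247 CPM in dark and 881 ± 95 CPM in light (SD, n = 4 each).

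Across the 61 described genes of the block, level per kb and log2 fold change had Spearman's rho of -0.49, and of -0.48 without AT2G07732. Among the 60 genes without AT2G07732, the 30 lower in level had a median log2 fold change of 0.32 with 30 of 30 above 0, and the 30 higher in level a median of 0.13 with 24 of 30 above 0. Points share their libraries, and genes of low level have larger error, so this is a description of these libraries. The dark libraries were not alike in the block. Dark-RNA2 was the highest of the 8 libraries for 24 of the 61 genes and Dark-RNA4 for 27. Dark-RNA1 was highest for 0 and Dark-RNA3 for 3, and Light-RNA3 was the lowest of the 8 for 22. Relative to the light mean, the median log2 deviation over the 61 genes was 0.08, 0.37, 0.15 and 0.30 in Dark-RNA1 to Dark-RNA4, against 0.06, 0.02, -0.06 and -0.01 in Light-RNA1 to Light-RNA4. Dark-RNA3 was the lowest of the 8 for 10 genes, among them AT2G07708 (163 CPM, against 285 to 321 CPM in the other dark libraries), AT2G07776, AT2G07785 and AT2G07725. The biological coefficient of variation, the spread between libraries beyond counting, was below the median of all genes (0.21) for 47 of these 61 genes. Levels were not matched in this comparison, so it does not show that these genes are unusually steady.

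**Figure D5:**
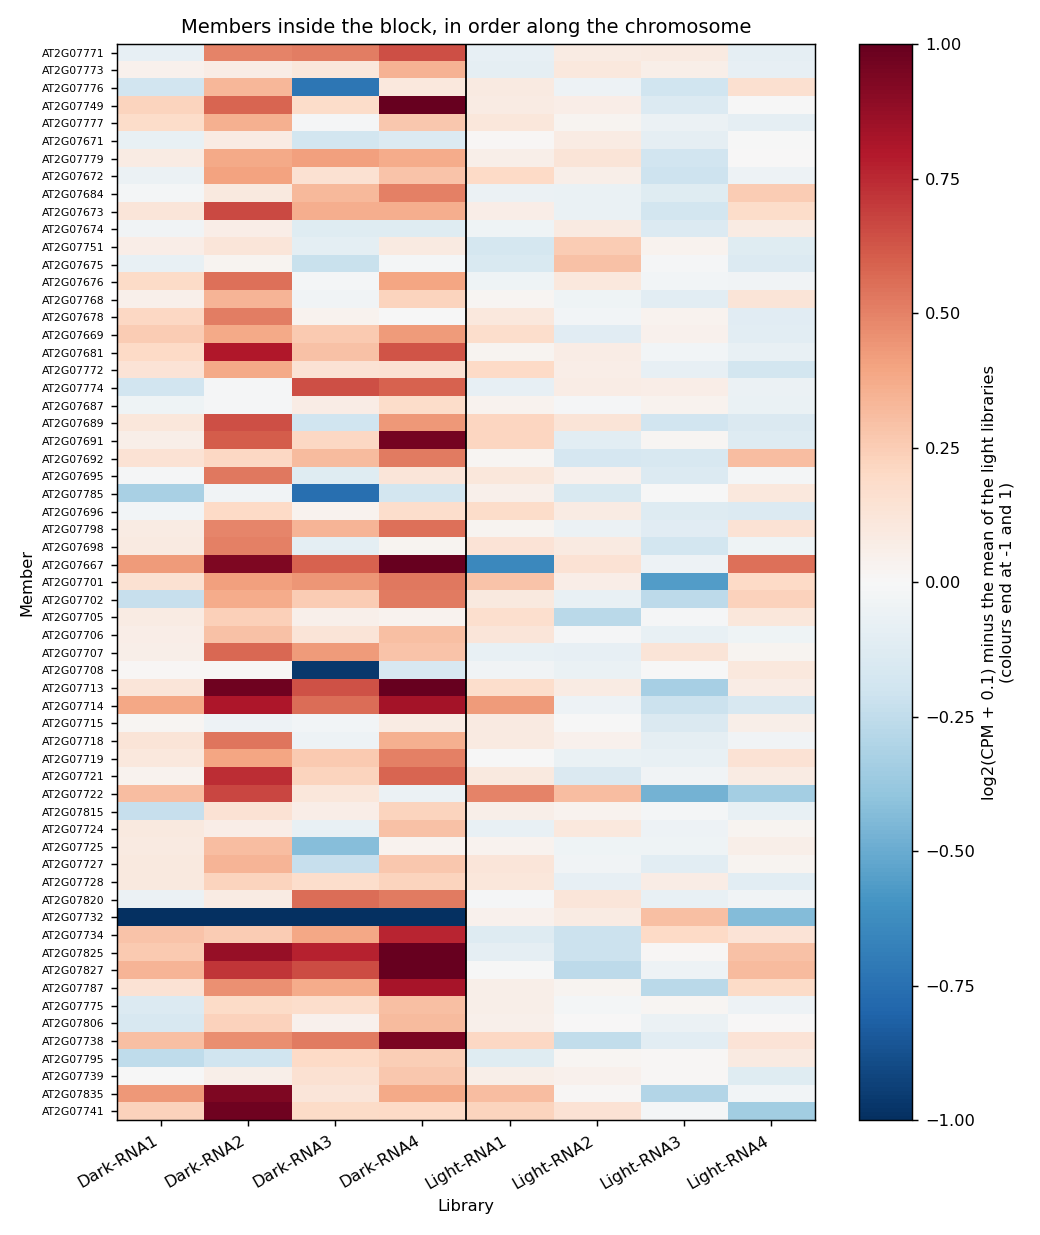
Log2(CPM + 0.1) minus the mean of the light libraries for each described gene inside the block (rows, in chromosome order) in each library (columns, dark libraries left of light ones). Dark-RNA2 and Dark-RNA4 are red for most genes, AT2G07732 is blue in all 4 dark libraries, and single genes are blue in Dark-RNA3.

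The 6 genes beyond the block's end had no exon window in the mitochondrial genome (0%), although their numbers fall in the same range. AT2G07680, annotated as a multidrug resistance-associated transporter of the ABCC family, was called higher in dark. It had 8.87, 8.27, 18.5 and 12.2 CPM in the dark libraries and 5.25, 3.30, 2.53 and 3.71 CPM in the light libraries, and the groups do not overlap. The log2 fold change was 1.69 ± 0.32 (SE), a 3.22-fold higher level in dark, with an adjusted p of 0.012 by edgeR's quasi-likelihood test, and between 1.41 and 1.91 with a library left out. AT2G07690 (a minichromosome maintenance protein of DNA replication) averaged 113 ± 8 CPM in dark and 121 ± 5 CPM in light (SD, n = 4 each), and AT2G07750 (an RNA helicase) 16.9 ± 4.1 CPM in dark and 14.9 ± 0.7 CPM in light. AT2G07800 averaged 4.00 CPM in dark and 4.43 CPM in light. AT2G07760 and AT2G07810 stayed under the minimum of counts, as did AT2G07830 inside the block, which was 0 in every library.

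The block also holds 32 rows numbered outside the range, of which 31 were tested. Of the tested genes of the range inside the block, 54 of 61 log2 fold changes were above 0 with a median of 0.22, against 31 of 31 with a median of 0.33 for the rows outside the range. 2 of the 31 were called higher, AT2G07658 (0.58) and AT2G07662 (0.36, adjusted p of 0.038 by edgeR), against 3.69% of all genes. At unadjusted p under 0.05 there were 11 of the 31, and DESeq2 called 5, beside the all-gene shares above. The summed level of these rows was 3031 ± 371 CPM in dark and 2629 ± 108 CPM in light (SD, n = 4 each). Of the 20 rows just below the range, 15 belong to the block, so they are no separate set. Of 18 tested, 2 were called higher, the same AT2G07658 and AT2G07662, and the median was 0.32. At unadjusted p under 0.05 there were 6 of the 18, and DESeq2 called 3. Of the 20 rows just above the range, 0 belong to the block and 5 were tested. Their median was 0.22. Of these rows 0 were called by edgeR, 2 had an unadjusted p under 0.05 and DESeq2 called 2, beside the all-gene shares above.

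Nuclear genes for respiratory complexes and mitochondrial transcription lie outside the block. Of 44 listed genes, 13 were of complex I, 3 of complex II, 11 of complex III and 2 of cytochrome c. A further 5 were of complex IV, 8 of ATP synthase and 2 were organelle RNA polymerases. They were chosen with earlier results of these data known. All were tested and none was called by edgeR or DESeq2, against 10.0% and 15.8% of all genes that each tested. At unadjusted p under 0.05 there was 1, against 25.2% of all genes. Of the 44, 26 log2 fold changes were above 0, with a median of 0.02 and a range of -0.25 to 0.44. For complexes I, III, IV and ATP synthase, the 10 matched genes of the block had a median log2 fold change of 0.14 with 8 above 0, against 0.02 with 23 above 0 for the 37 nuclear genes, which encode other subunits.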

How the data were processed

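The 8 RNA-seq libraries were used and the MNase-seq samples were left out. Paired reads of 50 bases had been mapped by the authors to TAIR10 (TopHat2, Araport11 gene models), and HTSeq gave a read count for each gene. The deposited values are raw counts per gene, without normalization or pooling. Versions, strand use, the handling of reads with several matches, the RNA selection before library preparation and whether organelle genomes were mapped to are not given in the sources used here. A second deposited table holds the authors' own fold changes, p-values and FDR values, and was not used.

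Counts were fitted with edgeR 4.0.16 (R 4.3.3) with TMM factors, filterByExpr (minimum count 10) and a robust quasi-likelihood test of dark against light, adjusted by Benjamini-Hochberg over 19129 genes. CPM are counts over effective library sizes, and a level per kb divides them by the union of exons. The SE of a log2 fold change was derived as its absolute value over the square root of the quasi-likelihood F statistic. The fit was also run on simulated counts drawn gene by gene with the fitted dispersions. Such counts cannot speak to technical duplicates or to spread that genes share. Sequence came from the RefSeq TAIR10.1 assembly, in which 27636 of 28598 identifiers were found and whose nuclear chromosomes are those of TAIR10. Exon windows of 50 bases were looked up in the organelle and nuclear genomes on both strands. The block joins windows with gaps of up to 10000 bases. Alternatives were other factors, filters and tests (DESeq2 1.42.0), a replicate block, left-out libraries, windows of 25 and 100 bases and wider flanks. The members and gene lists were chosen with earlier results of these data known. Genes with values in every library were those called, the 10 with the highest mean CPM and those whose groups do not overlap, with AT2G07739 added as the other plastid-like gene. Python 3.11.15, pandas 2.3.3, scipy 1.17.1 and matplotlib 3.10.9 made tables and figures.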

Additional observations from a re-analysis of the deposited data

Results flagged for a closer look

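In 130 groups of 4 libraries (65 genes, dark and light), 6 held a library far from the other 3, and chance gives about 1 in 20, or 6.5. AT2G07741 (atp6) had 2801 CPM in Dark-RNA2, against 1631 to 1681 CPM in the other dark libraries. AT2G07779 had 111 CPM in Dark-RNA1, against 136 to 140 CPM in the other dark libraries. AT2G07772 had 17.0 CPM in Dark-RNA2, against 14.4 to 14.6 CPM in the other dark libraries. Among light libraries, AT2G07676 had 69.1 CPM in Light-RNA2, against 62.3 to 62.8 CPM in the others. AT2G07684 had 26.9 CPM in Light-RNA4, against 20.7 to 21.6 CPM. AT2G07800 had 3.07 CPM in Light-RNA4, against 4.73 to 4.96 CPM.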

How the results depend on the processing

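AT2G07732 (lower in dark) and AT2G07680 (higher in dark) were called under every alternative fit that held them (AT2G07732 is itself left out with the rows like the organelles). Over all genes 1912 were called, 3356 by DESeq2 and 962 to 2873 with a library left out, and 1885 with the rows like the organelles left out, an alternative chosen after seeing the data. In the dark-higher direction alone, 705 of all genes were called, 1485 by DESeq2 and 273 to 1204 with a library left out (681 without Dark-RNA1). Of the chromosome 2 genes, 3 of 66 were called higher, 14 of 67 by DESeq2 and 1 to 11 with a library left out. The number was 11 without Dark-RNA1 and 1 without Dark-RNA3, Dark-RNA4, Light-RNA2 or Light-RNA3. The cause was not tested. AT2G07825 lost its call without Dark-RNA3, Dark-RNA4, Light-RNA1, Light-RNA2 or Light-RNA3, and AT2G07827 without each of these or Dark-RNA2 in turn, and with library totals without factors (adjusted p of 0.056 by edgeR). The median log2 fold change of the genes tested was 0.15 to 0.25 with a library left out and 0.17 to 0.22 otherwise, and 53 to 57 genes were above 0 under every alternative run. Of 65 genes, 41 kept their direction and their side of the threshold under every alternative. Log2 fold changes near 0 changed sign for AT2G07715 with upper quartile factors (-0.0053) and with library totals without factors (-0.030), and for AT2G07725 (-0.014) and AT2G07795 (-0.016) with library totals without factors. With a library left out, ranges crossed 0 for AT2G07675 (-0.13 to 0.031), AT2G07695 (-0.0029 to 0.23), AT2G07715 (-0.044 to 0.034), AT2G07725 (-0.080 to 0.16), AT2G07750 (-0.0066 to 0.25), AT2G07751 (-0.020 to 0.13), AT2G07776 (-0.24 to 0.10) and AT2G07795 (-0.069 to 0.10). Same-numbered dark and light libraries deviated together with correlations of -0.14, 0.58, -0.02 and 0.22, not all over 0.1, so the libraries were not taken as pairs. Not every library correlated best with its own number. With the replicate block 2221 genes were called and the 4 calls on these genes were shared, and AT2G07795 changed sign (-0.0003). Depth limits the genes near 1 CPM or below, where 3 counts are 0.0779 to 0.159 CPM.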
